A study of Mus musculus with 10 samples.

Results

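A set of 10 genes that cells switch on early when cyclic AMP rises was followed in cultured mouse brown adipocytes: Nr4a1, Nr4a2, Nr4a3, Crem, Sik1, Pde4b, Pde4d, Rgs2, Gem and Rasd1. They were chosen by gene symbol as known early targets of cyclic AMP and of the transcription factor CREB. Earlier results of these data were known when they were chosen, so counts of these genes beside all genes are a description. These 10 genes are 10 of the 24640 gene symbols in the table of RNA-seq read counts, and 9 of them had enough reads to be tested among 15212 genes. Nr4a3 did not.

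The cells were C57BL/6 brown adipocytes in 5 groups of 2 libraries each. The groups were the solvent DMSO for 1 day, BML-260 for 1 day, ISO for 1 day, DMSO for 3 days and BML-260 for 3 days. The time label of ISO is 1 day but its sample titles carry no time, so its time in culture is uncertain. Sik1, at 67.4 CPM in ISO (counts scaled to library size), was above DMSO at 3 days (60.1 CPM) and at 1 day (33.9 CPM). The summed level of preadipocyte markers in ISO lay nearer DMSO at 3 days than at 1 day, though Ly6a and Thy1 did not. Effects of ISO against DMSO at 1 day may include culture time, which was not tested. Calls against both controls are given for the tested early genes, and counts against both for the gene lists followed with ISO. BML-260 is a small molecule known as an inhibitor of the dual-specificity phosphatase Dusp22. The labels give the third treatment only as ISO, and give no dose, no sex and no statement of whether the cells were primary cultures or a line. They also do not say whether the 2 libraries of a group came from separate cultures, so every p-value rests on how far both libraries of a group differ from each other, and that may be technical variation alone.

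Library totals ran from 16955918 to 21185675 counts, and within-group variation was small, with a coefficient of variation of 3.39% in the edgeR fit. Brown adipocyte markers were abundant in every library, summing to between 6930 and 13800 CPM, the count of a gene scaled to a common library size, although Dio2, a deiodinase of activated brown fat, had at most 2 counts in a library. Because the RNA is bulk, fewer cells of a type and less RNA per cell cannot be told apart.

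In brown fat, noradrenaline acts on beta-adrenergic receptors, adenylyl cyclase makes cyclic AMP, and protein kinase A phosphorylates CREB, which with its CRTC coactivators turns on a set of early genes. The set holds transcription factors (the Nr4a orphan nuclear receptors and Crem) and brakes on the same pathway. Among the brakes, Sik1 is a kinase that keeps CRTC proteins out of the nucleus, and Pde4b and Pde4d are phosphodiesterases that destroy cyclic AMP. Rgs2 and Gem restrain G proteins or calcium channels. The set also holds Rasd1, a Ras-like GTPase. Induction of such genes is typically rapid and short-lived, and the earliest libraries here were labelled 1 day.

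CREB binds the palindrome TGACGTCA, the cyclic AMP response element, and also its shorter form TGACG, read as CGTCA on the other strand. Promoter windows of 300 bases, from 250 before to 50 after an annotated start, came from RefSeq on GRCm38.p6. They were at hand for 6 of the 10 genes (9 windows). Crem, Sik1, Gem and Rasd1 are named without one. The 4 windows with more than 1 copy of the short form are shown, because this element is what makes a gene a candidate CREB target. Each is printed 5′ to 3′ on the gene's strand, with every TGACG or CGTCA in capitals. The windows are chr15:101266596-101266895 (plus strand) for Nr4a1, chr2:57123954-57124253 (minus strand) for Nr4a2, chr4:48045055-48045354 (plus strand) for Nr4a3 and chr1:144004100-144004399 (minus strand) for Rgs2.
Nr4a1: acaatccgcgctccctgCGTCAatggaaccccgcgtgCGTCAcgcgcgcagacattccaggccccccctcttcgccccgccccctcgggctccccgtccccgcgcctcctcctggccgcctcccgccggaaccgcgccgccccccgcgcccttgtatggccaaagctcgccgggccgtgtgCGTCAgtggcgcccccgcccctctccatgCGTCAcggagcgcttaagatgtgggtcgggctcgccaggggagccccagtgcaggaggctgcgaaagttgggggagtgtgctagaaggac
Nr4a2: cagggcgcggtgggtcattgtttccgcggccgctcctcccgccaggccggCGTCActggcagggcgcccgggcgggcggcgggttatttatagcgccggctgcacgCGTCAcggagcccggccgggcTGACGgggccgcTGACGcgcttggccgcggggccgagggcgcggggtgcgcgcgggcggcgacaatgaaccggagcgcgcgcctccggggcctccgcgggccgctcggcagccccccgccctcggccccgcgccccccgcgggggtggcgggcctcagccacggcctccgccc
Nr4a3: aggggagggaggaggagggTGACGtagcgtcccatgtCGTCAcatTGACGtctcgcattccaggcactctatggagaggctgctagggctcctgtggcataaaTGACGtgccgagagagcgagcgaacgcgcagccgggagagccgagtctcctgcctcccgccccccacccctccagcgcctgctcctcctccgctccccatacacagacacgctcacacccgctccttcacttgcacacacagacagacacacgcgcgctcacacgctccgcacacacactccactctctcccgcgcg
Rgs2: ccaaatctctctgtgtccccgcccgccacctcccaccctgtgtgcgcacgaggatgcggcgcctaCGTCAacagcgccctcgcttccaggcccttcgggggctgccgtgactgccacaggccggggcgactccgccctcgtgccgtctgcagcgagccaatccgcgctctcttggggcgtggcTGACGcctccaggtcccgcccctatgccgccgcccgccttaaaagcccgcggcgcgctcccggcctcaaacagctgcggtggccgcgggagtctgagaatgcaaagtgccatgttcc

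Nr4a1, Nr4a2 and Nr4a3 each carried 4 copies of the short form in their window, against 0.231% of 32851 RefSeq promoter windows with at least 4. In Nr4a1 the copy nearest the start began 40 bases before it. Rgs2 carried 2 copies, and 5.01% of all windows held at least 2. Of the 4 Pde4b windows 1 held a single copy, the Pde4d window held 0, and 20.8% of all windows held at least 1. The full palindrome, present in 1.79% of all windows, was in 0 of the 9 member windows. The short form lies within the palindrome on both strands, so the searches overlap, and a match is only a match of letters in this window. The genes were chosen as known targets, and the background windows were not matched to theirs in base composition. Of the 3 genes with the most copies, Nr4a1 was lower with BML-260 at both times, the change of Nr4a2 did not pass the test in any comparison, and Nr4a3 had too few reads to be tested.

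Per kilobase of exon, the 10 genes spanned a wide range of levels. In DMSO at 1 day, mean CPM per kilobase was highest for Rgs2 at 35.8 and Rasd1 at 20, followed by Sik1 at 6.6, Nr4a1 at 4.42 and Pde4d at 2.89. Crem, Gem, Pde4b and Nr4a2 lay between 1.03 and 1.65, and Nr4a3 was at 0.0418. In DMSO at 3 days Rasd1, at 9.75 CPM per kilobase, was already below Sik1 at 11.7, and Rgs2 was at 40. With BML-260 at 3 days Rasd1 was at 2.85 and Sik1 at 11.1, while Rgs2 was still the highest at 16.3. Lengths are those of GENCODE M21 on GRCm38 with all exons of a gene merged, from 1611 bases for Rasd1 to 12006 bases for Pde4d.

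**Figure D1:**
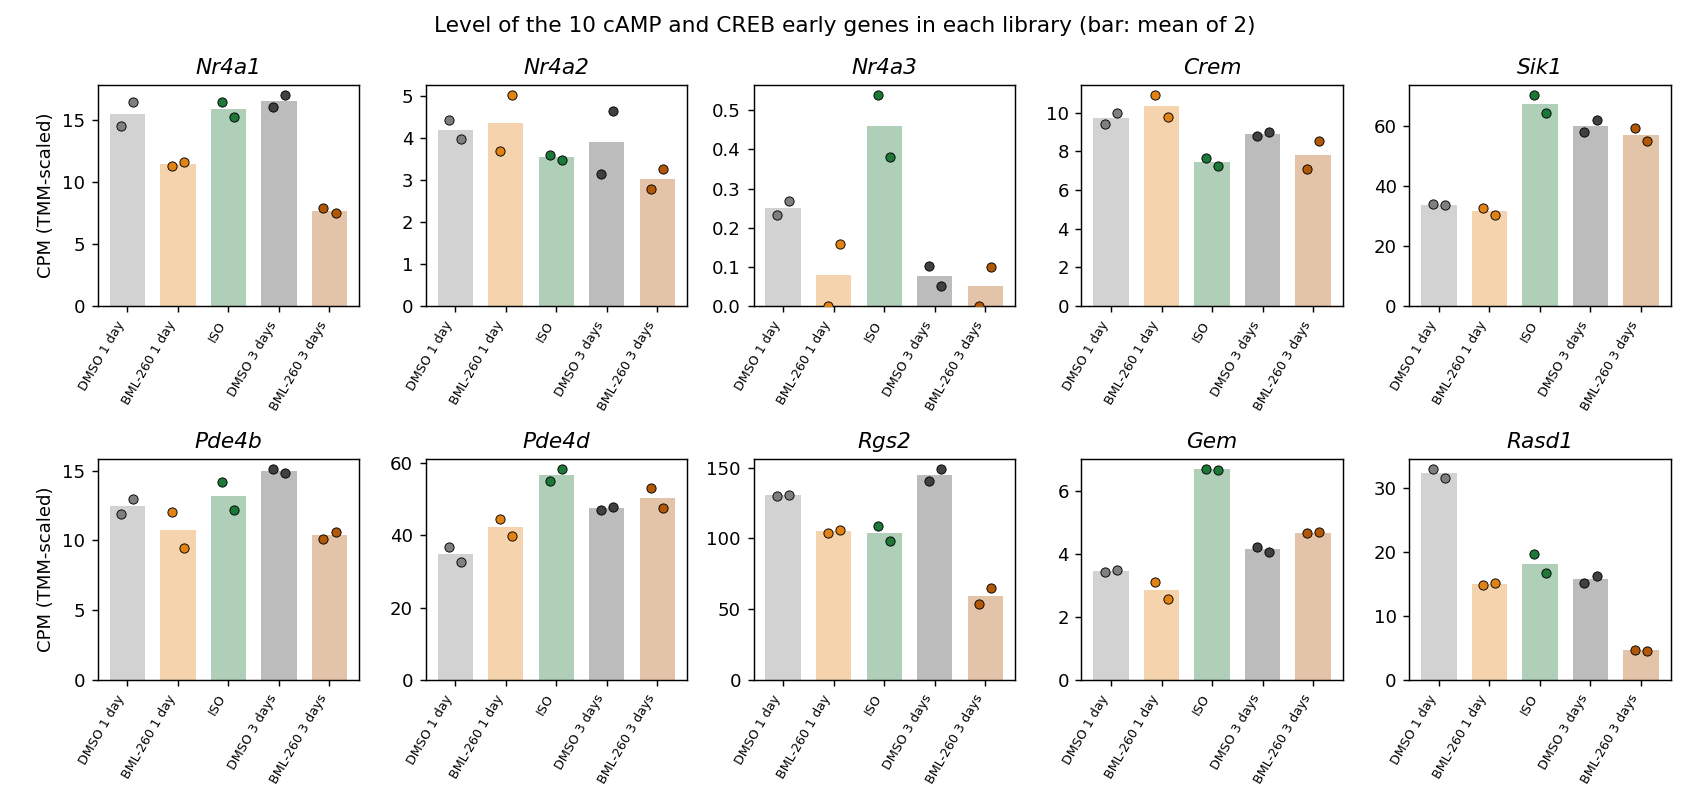
Level of each of the 10 genes in every library, in TMM-scaled CPM (each vertical axis starts at 0), by group; points are libraries and bars are group means. The Rasd1 points lie at about 32 in DMSO at 1 day, at 15.2 and 16.2 in DMSO at 3 days and under 5 in BML-260 at 3 days. Sik1 and Gem are highest in ISO.

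With BML-260, more of the tested genes fell than rose. At 1 day, Rasd1, Nr4a1 and Rgs2 fell, Pde4d rose, and the other 5 of 9 did not pass (edgeR quasi-likelihood test, adjusted p under 0.05 over all genes tested). Across all genes in that comparison, 9.32% were called higher and 8.61% lower, and the median log2 fold change was -0.23 for the 9 genes and 0 for all. At 3 days, Rasd1, Rgs2, Nr4a1 and Pde4b fell and 0 of 9 rose, where 17.2% of all genes were called higher and 18.3% lower. The 9 genes then had a median log2 fold change of -0.36, beside -0.02 for all genes. The effect itself grew between the times for Rgs2, Rasd1 and Nr4a1, tested as a difference of differences. Of all genes, 3.93% were called in the positive and 4.53% in the negative direction for that difference.

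ISO moved the set in both directions. Against DMSO at 1 day, Sik1, Pde4d and Gem rose, Rasd1, Crem and Rgs2 fell, and Nr4a1, Nr4a2 and Pde4b did not pass. In that comparison 21.4% of all genes were called higher and 20.3% lower, so the 3 of 9 in each direction stand against a high background. The median log2 fold change was 0.03 for the 9 genes and 0 for all. Set against BML-260 with the same time label of 1 day, 6 genes were lower with BML-260 (Sik1, Gem, Nr4a1, Pde4d, Pde4b and Rasd1). Crem was higher. The calls of Pde4b and Rasd1 did not hold with DESeq2. The background there was 21.6% higher and 22.8% lower, with medians of -0.30 for the 9 genes and 0 for all. The comparisons of BML-260 and of ISO with DMSO at 1 day share their control libraries.

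Culture time alone also moved these genes. Between DMSO at 1 and at 3 days, Sik1 and Pde4d rose and Rasd1 fell, where 18.1% of all genes were called higher and 16.8% lower. The median log2 fold change was 0.15 for the 9 genes and 0.01 for all. The ISO libraries, labelled 1 day, were also set against DMSO at 3 days, a comparison in which treatment and labelled time differ together. There Gem and Pde4d were higher and Rgs2 lower in ISO, with 10.6% of all genes called higher and 9.25% lower. The medians were -0.06 for the 9 genes and 0 for all.

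**Figure D2:**
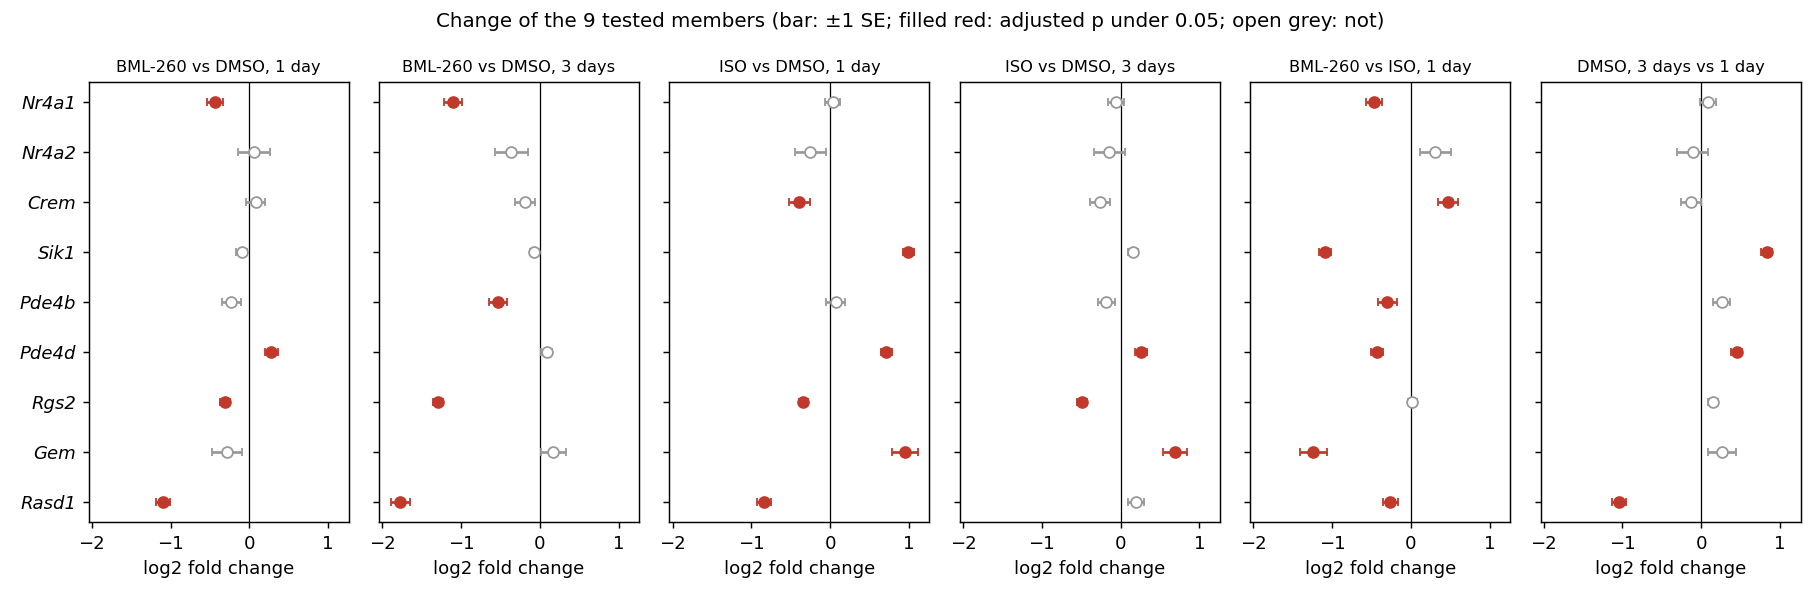
Log2 fold change of the 9 tested genes in each comparison, with bars of 1 standard error; filled symbols passed an adjusted p of 0.05 in edgeR. Rasd1 and Rgs2 lie left of 0 in both comparisons of BML-260 with DMSO, and Sik1 and Gem lie near 1 in ISO against DMSO at 1 day.

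Nr4a1, an orphan nuclear receptor and a classic early gene (chromosome 15, 101254269 to 101274795, plus strand, GRCm38), was at 14.5 and 16.5 CPM in the 2 DMSO libraries at 1 day and at 11.3 and 11.6 CPM with BML-260. At 3 days it stood at 16.1 and 17 CPM in DMSO and at 7.89 and 7.49 CPM with BML-260. Both BML-260 groups lay below every DMSO and ISO library, and the 3-day group was the lowest of all. The log2 fold change was -0.44 (SE 0.10, edgeR adjusted p = 0.00358) at 1 day and -1.10 (SE 0.11, adjusted p = 1.01e-08), a 2.15-fold reduction, at 3 days. The difference between these effects was -0.66 (SE 0.15, adjusted p = 0.00734). Without replicate 2 of DMSO at 1 day, the 1-day change was -0.34 with an adjusted p of 0.11, and DESeq2 put the difference between the times at an adjusted p of 0.051.

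ISO left Nr4a1 within the range of the controls, at 16.5 and 15.3 CPM. Its log2 fold change against DMSO at 1 day was 0.03 (SE 0.10, edgeR adjusted p = 0.831). BML-260 at 1 day was lower than ISO by a log2 fold change of -0.47 (SE 0.10, adjusted p = 0.000516), and the libraries did not overlap. In order of mean level, DMSO at 3 days, ISO and DMSO at 1 day overlapped with their neighbours, and BML-260 at 1 day and at 3 days each stood apart.

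Its relative Nr4a2, another orphan receptor of the same family (chromosome 2, 57106830 to 57124003, minus strand), was low, at 2.79 to 5.01 CPM across the 10 libraries. DMSO at 3 days alone covered 3.15 and 4.64 CPM, so the spread within a group was as wide as most gaps between groups. BML-260 at 3 days had the lowest mean, at 3.03 ± 0.34 CPM (SD, n = 2), but the change against DMSO was -0.36 (SE 0.21, edgeR adjusted p = 0.196). None of the 7 comparisons called Nr4a2.

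Nr4a3, the third receptor of the family (chromosome 4, 48045153 to 48086447, plus strand), had so few reads that it was left out of the test. The counts were 4 and 5 in DMSO at 1 day, 0 and 3 with BML-260 at 1 day, and 9 and 8 with ISO. At 3 days they were 2 and 1 in DMSO and 0 and 2 with BML-260. The ISO libraries held the most reads, without overlap with any other group. With no filter on low counts, the comparison of BML-260 with ISO at 1 day gave a log2 fold change of -2.36 (edgeR adjusted p = 0.048). A fit without replicate 1 of BML-260 at 1 day kept the filter, which Nr4a3 then passed. It gave a smaller log2 fold change of -1.48, which rests on the 3 counts of the BML-260 library that was left. The other 6 comparisons did not pass without the filter.

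Crem encodes activators and, from an internal promoter, the repressor ICER that shuts CREB targets down. Its counts do not separate these forms. Crem was at 9.42 and 10 CPM in DMSO at 1 day, 10.9 and 9.76 CPM with BML-260 and 7.65 and 7.25 CPM with ISO. At 3 days it was at 8.79 and 9.02 CPM in DMSO and at 7.07 and 8.55 CPM with BML-260. The ISO libraries lay below both DMSO groups, and BML-260 at 1 day overlapped with its control. Against DMSO at 1 day, Crem changed with ISO by -0.39 on the log2 scale (SE 0.13, edgeR adjusted p = 0.018), and BML-260 at 1 day was higher than ISO by 0.47 (SE 0.13, adjusted p = 0.00395). The first of these calls was lost with DESeq2 (adjusted p = 0.091), and without replicate 2 of DMSO at 1 day or replicate 2 of ISO (adjusted p = 0.11 in each). Against DMSO at 3 days, ISO gave -0.26 (SE 0.13, adjusted p = 0.169). Neither comparison of BML-260 with DMSO passed, with log2 fold changes of 0.08 (SE 0.12) and -0.19 (SE 0.13). Crem exons overlap those of Gm6225 on the opposite strand by 472 bases in GENCODE M21, and no source used here states whether the counting used strand.

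Sik1, the salt-inducible kinase that phosphorylates CRTC coactivators (chromosome 17, 31844250 to 31855804, minus strand), rose with ISO and with culture time, and its values with BML-260 did not pass against DMSO. It was at 34.0 and 33.7 CPM in DMSO and 32.8 and 30.5 CPM with BML-260 at 1 day, and at 70.3 and 64.4 CPM with ISO. At 3 days, DMSO stood at 58.0 and 62.1 CPM and BML-260 at 59.3 and 55.0 CPM. The 4 libraries of DMSO and BML-260 at 1 day were the lowest, the 4 at 3 days overlapped with each other, and both ISO libraries were above all others.

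The rise of Sik1 with ISO was 1.99-fold (log2 0.99, SE 0.07, edgeR adjusted p = 4.63e-12) over DMSO at 1 day, and the rise with time in DMSO was 1.77-fold (log2 0.83, SE 0.07, adjusted p = 3.13e-10). Against DMSO at 3 days, ISO was higher by a log2 fold change of 0.16 (SE 0.06, adjusted p = 0.057). That value passed with DESeq2's size factors in edgeR (adjusted p = 0.046), with the replicate number as a block (0.047) and without replicate 2 of ISO (0.044). BML-260 gave -0.10 (SE 0.07, adjusted p = 0.389) at 1 day and -0.07 (SE 0.06, adjusted p = 0.384) at 3 days. Its level at 1 day was 2.13-fold lower with BML-260 than with ISO (log2 -1.09, SE 0.07, adjusted p = 5.53e-13).

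The cyclic AMP phosphodiesterases Pde4b (chromosome 4, 102087543 to 102607259, plus strand) and Pde4d (chromosome 13, 108449948 to 109953461, plus strand) break down the same messenger and are given in turn. Pde4b was at 11.9 and 13 CPM in DMSO at 1 day, 12 and 9.44 CPM with BML-260 and 14.2 and 12.2 CPM with ISO. At 3 days it was at 15.1 and 14.8 CPM in DMSO and at 10.1 and 10.6 CPM with BML-260. At 1 day the DMSO and BML-260 libraries overlapped, and at 3 days they did not.

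At 3 days Pde4b fell 1.44-fold with BML-260 (log2 -0.53, SE 0.12, edgeR adjusted p = 0.000729), and at 1 day the log2 fold change was -0.23 (SE 0.12, adjusted p = 0.209). The difference between the times was -0.30 (SE 0.17, adjusted p = 0.291), so a change confined to 3 days was not shown. Against ISO at 1 day, the value with BML-260 was lower by a log2 fold change of -0.30 (SE 0.12, adjusted p = 0.0411). That call did not hold with DESeq2 (adjusted p = 0.13), upper-quartile scaling (0.074) or a fit of only the groups compared (0.072). It was also lost without replicate 2 of BML-260 at 1 day (log2 -0.13, adjusted p = 0.52) and without replicate 1 of ISO (log2 -0.19, adjusted p = 0.30).

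Pde4d was at 36.8 and 32.6 CPM in DMSO, 44.6 and 39.8 CPM with BML-260 and 55.1 and 58.3 CPM with ISO at 1 day. After 3 days the level was 47.1 and 47.8 CPM in DMSO and 53.2 and 47.6 CPM with BML-260. ISO was the highest group and DMSO at 1 day the lowest, each without overlap, while the 2 groups at 3 days overlapped. The rise over DMSO at 1 day was 1.64-fold with ISO (log2 0.71, SE 0.07, edgeR adjusted p = 9.48e-09) and 1.22-fold with BML-260 (log2 0.28, SE 0.08, adjusted p = 0.00891). The BML-260 call was lost without replicate 2 of DMSO at 1 day (adjusted p = 0.20) and without replicate 1 of BML-260 at 1 day (adjusted p = 0.15).

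With BML-260 at 1 day, Pde4d was lower than with ISO by -0.43 log2 units (SE 0.07, edgeR adjusted p = 1.39e-05). In DMSO it rose 1.37-fold from 1 to 3 days (log2 0.45, SE 0.07, adjusted p = 2.14e-05). At 3 days the BML-260 effect was 0.09 (SE 0.07, adjusted p = 0.361), and its difference from the 1-day effect was -0.20 (SE 0.10, adjusted p = 0.247). ISO was above DMSO at 3 days by a log2 fold change of 0.26 (SE 0.07, adjusted p = 0.0074), a call lost without replicate 2 of ISO (0.11) or replicate 1 of DMSO at 3 days (0.056).

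Rgs2 speeds the shut-off of Gq proteins and dampens adenylyl cyclase (chromosome 1, 143999338 to 144004161, minus strand). It was at 130 and 131 CPM in DMSO at 1 day, 104 and 106 CPM with BML-260 and 109 and 98.3 CPM with ISO. After 3 days the values were 141 and 149 CPM in DMSO and 53.3 and 64.9 CPM with BML-260. Both treatments lay below DMSO at 1 day and overlapped with each other, and BML-260 at 3 days was far below every other library.

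The fall of Rgs2 with BML-260 went from -0.31 log2 units (SE 0.06, edgeR adjusted p = 0.000686) at 1 day to -1.29 (SE 0.06, adjusted p = 3.35e-14), or 2.45-fold, at 3 days. The difference was -0.98 (SE 0.09, adjusted p = 1.89e-07), the largest in size among the 9 genes. The reduction was thus present at both times and deeper at the later one. ISO lowered it by a log2 fold change of -0.34 (SE 0.06, adjusted p = 9.01e-05) against DMSO at 1 day and -0.49 (SE 0.06, adjusted p = 2.52e-06) against DMSO at 3 days. BML-260 and ISO at 1 day differed by 0.02 (SE 0.06, adjusted p = 0.822). The change with time in DMSO, 0.15 (SE 0.06, adjusted p = 0.0503), lay at the threshold and passed with library totals only (0.029), with no filter (0.022), with the replicate block (0.041) and in a fit of only the groups compared (0.017).

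Gem, a small GTPase that inhibits voltage-gated calcium channels (chromosome 4, 11704457 to 11714752, plus strand), was low, with ISO well above the other groups. It was at 3.43 and 3.49 CPM in DMSO at 1 day, 3.11 and 2.58 CPM with BML-260 and 6.69 and 6.68 CPM with ISO. After 3 days Gem stood at 4.22 and 4.07 CPM in DMSO and at 4.66 and 4.68 CPM with BML-260. The ISO libraries were above all others, and no 2 groups overlapped.

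The Gem level with ISO was 1.93-fold that of DMSO at 1 day (log2 0.95, SE 0.16, edgeR adjusted p = 3.27e-05) and 1.61-fold that of DMSO at 3 days (log2 0.69, SE 0.15, adjusted p = 0.00213). With BML-260 at 1 day it was 2.35-fold lower than with ISO (log2 -1.24, SE 0.17, adjusted p = 1.18e-06). Against DMSO, BML-260 gave -0.29 (SE 0.19, adjusted p = 0.343) at 1 day and 0.17 (SE 0.16, adjusted p = 0.448) at 3 days, so although the libraries did not overlap, neither change passed.

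Rasd1, a Ras-like GTPase also called Dexras1 for its induction by glucocorticoids (chromosome 11, 59963181 to 59964944, minus strand), had the widest span of group means among the tested genes. It was at 32.9 and 31.6 CPM in DMSO at 1 day, 14.8 and 15.2 CPM with BML-260 and 19.6 and 16.7 CPM with ISO. At 3 days it was at 15.2 and 16.2 CPM in DMSO and at 4.71 and 4.47 CPM with BML-260. DMSO at 1 day was above and BML-260 at 3 days below all other libraries, a 7.02-fold span of group means.

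Rasd1 fell 2.14-fold with BML-260 at 1 day (log2 -1.10, SE 0.09, edgeR adjusted p = 2.33e-09) and 3.42-fold at 3 days (log2 -1.77, SE 0.12, adjusted p = 1.49e-11). The effect was larger at 3 days by -0.67 (SE 0.16, adjusted p = 0.00748). Against DMSO at 1 day it was 1.79-fold lower with ISO (log2 -0.84, SE 0.09, adjusted p = 1.65e-08), but against DMSO at 3 days the ISO value was 0.20 (SE 0.10, adjusted p = 0.15), so the direction depended on the control. It fell 2.05-fold with time in DMSO (log2 -1.04, SE 0.09, adjusted p = 9.39e-10). BML-260, and longer culture in DMSO alone, went with less Rasd1 RNA. BML-260 was below ISO at 1 day by a log2 fold change of -0.26 (SE 0.10, adjusted p = 0.0302). That last call was lost with DESeq2 (0.11), upper-quartile scaling (0.064) and a fit of only the groups compared (0.052). It was also lost without replicate 1 (0.12) or replicate 2 (0.086) of BML-260 at 1 day and without replicate 1 of ISO (log2 -0.14, adjusted p = 0.33).

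**Figure D3:**
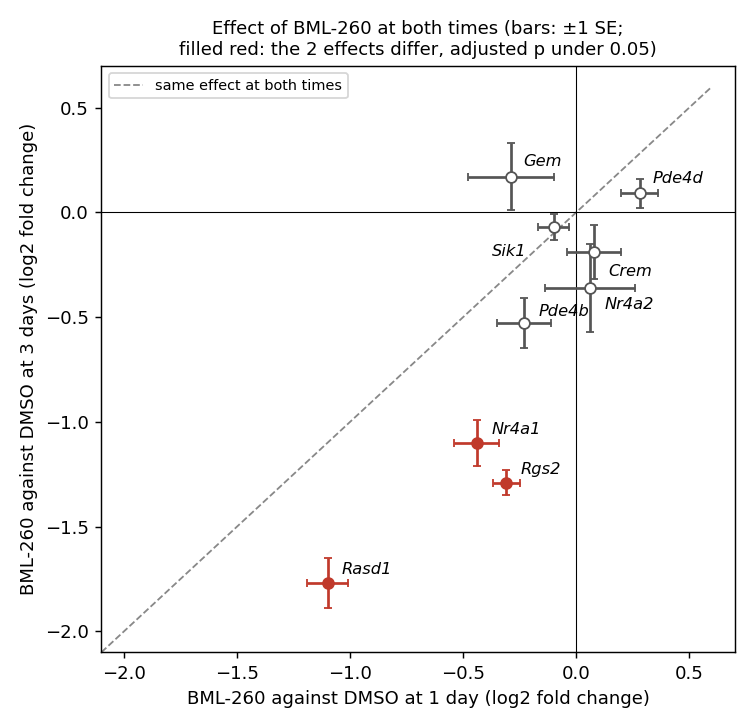
Log2 fold change of each tested gene with BML-260 against DMSO at 1 day (horizontal) and at 3 days (vertical), with bars of 1 standard error; the dashed line marks equal effects, and filled red points are genes whose effects differ at an adjusted p under 0.05. Nr4a1, Rgs2 and Rasd1 lie below the line by 0.66, 0.98 and 0.67.

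The authors' deposited table of changed genes at 1 day holds Rgs2 and Rasd1, with the authors' log2 fold changes of -0.30 and -0.88. The authors' deposited table for 3 days holds Nr4a1 at -0.90, Pde4b at -0.43, Rgs2 at -1.13 and Rasd1 at -1.38. The same 4 genes were called at 3 days by edgeR, whereas at 1 day edgeR also called Nr4a1 and Pde4d, which the authors' deposited table for 1 day does not list.

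Other genes of the pathway also moved in both directions. Of 25 other known cyclic AMP and CREB targets, 22 were tested. With BML-260, 2 rose and 8 fell at 1 day, where 9.32% of all genes were called higher and 8.61% lower. At 3 days 4 rose and 11 fell, where 17.2% of all genes were called higher and 18.3% lower. The medians were -0.17 and -0.31. Egr1, an early growth response transcription factor, fell at both times (log2 -0.31, edgeR adjusted p = 9e-05, and -0.62, adjusted p = 2.6e-10). Ucp1, which uncouples respiration to release heat, rose by a log2 fold change of 1.32 at each time, from 5.57 ± 0.67 to 13.9 ± 2.0 CPM at 1 day and from 12.7 ± 0.63 to 31.7 ± 1.5 CPM at 3 days (SD, n = 2). Atf3, a stress-responsive factor of the CREB family, rose by 0.80 and 1.66 (adjusted p = 9.4e-06 and 1.8e-12). With ISO against DMSO at 1 day, 6 of the 22 rose and 7 fell, with a median of -0.04. The shares of all genes there were 21.4% higher and 20.3% lower. Per1, a clock gene with cyclic AMP response elements, rose from 43.2 ± 1.6 to 131 ± 14 CPM (log2 1.60, adjusted p = 2.5e-16), beside Sik1 and Gem. It also rose with time in DMSO, to 91.8 ± 0.65 CPM (log2 1.09, adjusted p = 1.3e-12), and ISO was above DMSO at 3 days by 0.51 (adjusted p = 4.6e-07; SD, n = 2). Ucp1 was at 24.8 ± 1.8 CPM in ISO, above DMSO at 1 day (log2 2.15, adjusted p = 1.9e-13) and at 3 days (0.96, adjusted p = 1.7e-07), and BML-260 at 1 day was below ISO (-0.83, adjusted p = 1.7e-07). With ISO against DMSO at 1 day, Dusp1, a phosphatase of MAP kinases, fell (log2 -0.94, adjusted p = 3.9e-12). With ISO against DMSO at 3 days, 5 of the 22 targets were higher and 7 lower (median -0.04), beside 10.6% and 9.25% of all genes.

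The upstream list holds 30 genes for receptors, G proteins, adenylyl cyclases, kinase subunits and CREB factors, of which 28 were tested. With BML-260, 1 rose and 5 fell at 1 day, where 9.32% of all genes were called higher and 8.61% lower. At 3 days 2 rose and 2 fell, where 17.2% of all genes were called higher and 18.3% lower. The medians were -0.05 and 0.01. Adrb3, the beta-3 adrenergic receptor, fell from 19.8 ± 1.2 to 7.76 ± 0.59 CPM at 1 day and from 22.4 ± 1.5 to 3.66 ± 0.37 CPM at 3 days (edgeR log2 -1.35, adjusted p = 3.5e-09, and -2.61, adjusted p = 1.6e-14; SD, n = 2). In ISO it was at 6.76 ± 0.66 CPM. Crtc2, a CREB coactivator, rose at 3 days (log2 0.37, adjusted p = 4.7e-05). Creb1 itself, named here after its values were seen, gave -0.10 (adjusted p = 0.22) and 0.01 (adjusted p = 0.94). With ISO against DMSO at 1 day, 5 of the 28 rose and 9 fell, with a median of -0.03. The shares of all genes there were 21.4% higher and 20.3% lower. When DMSO at 3 days was the control, 2 were higher with ISO and 3 lower (median 0.01), beside 10.6% and 9.25% of all genes.

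Among 29 relatives of the 10 genes (other salt-inducible kinases, phosphodiesterases, RGS proteins, Gem-like and Rasd-like GTPases and the Rxr partners of Nr4a receptors), 21 were tested. With BML-260, 0 rose and 3 fell at 1 day, where 9.32% of all genes were called higher and 8.61% lower. At 3 days 1 rose and 10 fell, where 17.2% of all genes were called higher and 18.3% lower. The medians were -0.14 and -0.26. Sik2, the salt-inducible kinase abundant in fat, fell from 112 ± 4.2 to 85.4 ± 4.8 CPM at 1 day (edgeR log2 -0.39, adjusted p = 4.1e-06) and from 131 ± 1.1 to 79.2 ± 1.9 CPM at 3 days (log2 -0.73, adjusted p = 1.9e-11; SD, n = 2), where the values for Sik1 did not pass. Rrad, a GTPase of the same family as Gem, fell at 1 day (log2 -0.85, adjusted p = 0.0033). Its value at 3 days did not pass (-0.16, adjusted p = 0.54), nor did the difference between the times (0.69, adjusted p = 0.12). Rgs3 fell at 3 days (log2 -0.48, adjusted p = 6e-08), and so did the phosphodiesterase Pde7b (log2 -1.61, adjusted p = 1.3e-05). Neither passed at 1 day (log2 -0.04 for Rgs3 and -0.24 for Pde7b). With ISO against DMSO at 1 day, 9 of the 21 rose and 4 fell, where 21.4% of all genes were called higher and 20.3% lower. The median was 0.15. Rxrg, with the smallest p of the list there, fell (edgeR log2 -0.91, adjusted p = 8e-07), and Pde10a rose (log2 0.94, adjusted p = 1.7e-06). In DMSO alone Rxrg also fell with time (-0.73, adjusted p = 2e-05). Set against DMSO at 3 days, ISO gave -0.19 for Rxrg (adjusted p = 0.34) and 0.64 for Pde10a (adjusted p = 0.00048). In that comparison 1 of the 21 rose and 4 fell (median -0.04), where 10.6% of all genes were called higher and 9.25% lower.

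Early genes are also induced by serum and handling. Of 24 such genes, all tested, 1 rose and 7 fell with BML-260 at 1 day, 6 rose and 11 fell at 3 days, and 9 rose and 8 fell with ISO against DMSO at 1 day. Their medians were -0.16, -0.09 and 0. All genes called higher and lower made up 9.32% and 8.61% at 1 day and 17.2% and 18.3% at 3 days with BML-260. With ISO against DMSO at 1 day they made up 21.4% and 20.3%. When DMSO at 3 days was the control, 4 of the 24 were higher with ISO and 10 lower (median -0.05), beside 10.6% and 9.25% of all genes. The list shares Egr1, Atf3, Dusp1 and others with the list of cyclic AMP targets. Egr2, a growth-factor induced relative of Egr1, fell by a log2 fold change of -0.68 at 1 day and -0.98 at 3 days (edgeR adjusted p = 0.00018 and 1.6e-07). In DMSO over time, 11 of the 24 rose and 4 fell, with a median of 0.24, beside the rise of Sik1. The shares of all genes over time were 18.1% higher and 16.8% lower. The part of serum or handling in the changes of the 10 genes was not tested.

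**Figure D4:**
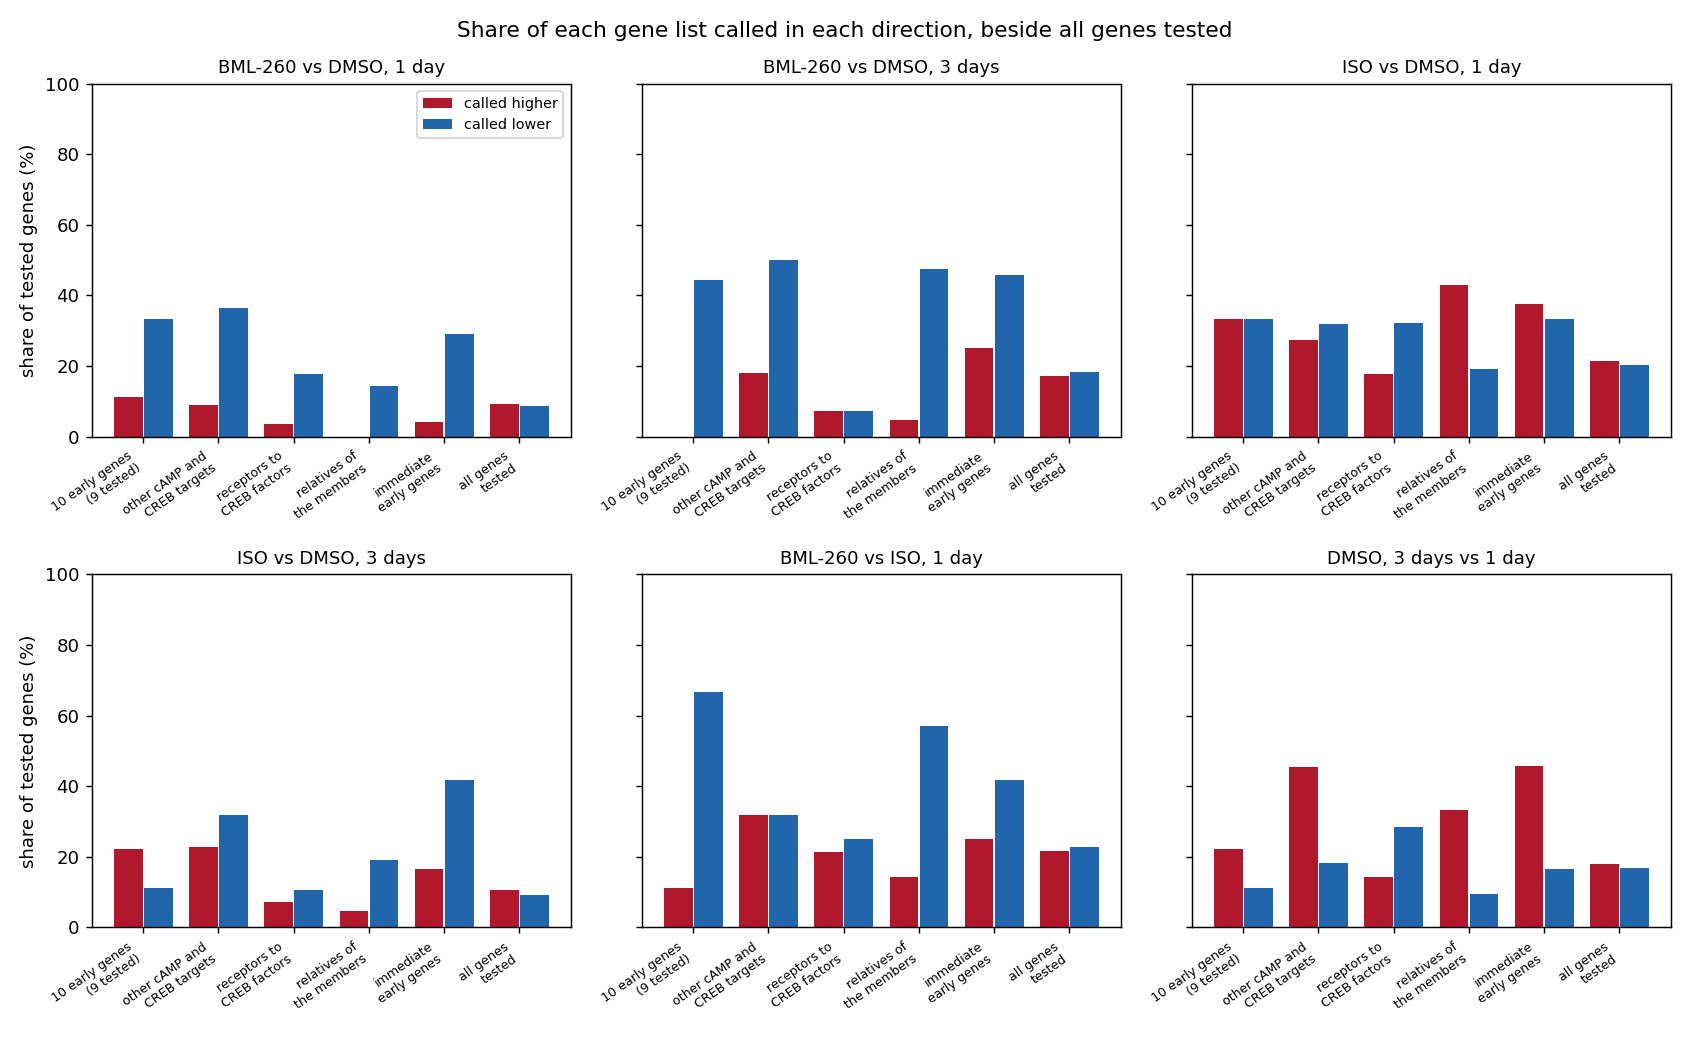
Share of the tested genes of each list called higher (red) or lower (blue) at an adjusted p of 0.05 in 6 comparisons, in percent, with all genes tested at the right of each panel. In BML-260 against DMSO at 3 days, 0 of the 9 early genes were called higher and 4 lower, beside 17.2% and 18.3% of all genes.

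Markers of other cell types moved with the groups. The summed level of 10 preadipocyte and fibroblast markers was 297 to 311 CPM in DMSO at 1 day, 194 to 207 CPM with BML-260 at 1 day and 469 to 499 CPM with ISO. At 3 days the sums were 516 to 563 CPM in DMSO and 300 to 310 CPM with BML-260. Of the 8 tested, 4 fell with BML-260 at 1 day and 7 at 3 days, 7 rose with ISO against DMSO at 1 day, and 7 rose with time in DMSO. When DMSO at 3 days was the control, 1 of the 8 was higher with ISO and 2 were lower. Smooth muscle and pericyte markers summed to 381 to 385 CPM in DMSO and 278 to 297 CPM with BML-260 at 1 day, and to 411 to 422 CPM and 248 to 272 CPM at 3 days. The 12 brown adipocyte markers summed to 9890 to 10000 CPM in DMSO at 1 day, 13300 to 13800 CPM with BML-260 and 6930 to 7240 CPM with ISO. At 3 days they summed to 7450 to 7620 CPM in DMSO and 7720 to 7930 CPM with BML-260. The higher sum at 1 day came from Fabp4, a fatty acid binding protein, at 6390 ± 180 CPM in DMSO and 10400 ± 170 CPM with BML-260, while Adipoq, the adipokine adiponectin, went from 1390 ± 16 to 1090 ± 90 CPM (SD, n = 2). Of the 11 tested, 4 rose and 4 fell with BML-260 at 1 day (median log2 -0.09), and 4 rose and 6 fell at 3 days (median -0.28). With ISO against DMSO at 1 day, 2 rose and 7 fell (median -0.39), and against DMSO at 3 days 2 were higher and 5 lower (median -0.23). All genes called higher and lower made up 9.32% and 8.61% at 1 day and 17.2% and 18.3% at 3 days with BML-260. They made up 21.4% and 20.3% with ISO against DMSO at 1 day, and 18.1% and 16.8% with time in DMSO. For ISO against DMSO at 3 days the shares were 10.6% and 9.25%. Endothelial markers summed to at most 2.08 CPM and macrophage markers to at most 10.5 CPM in every library. Itgam had at most 1 count and Lyz2 at most 6, while Cd68 reached 130 and Cd14 71. Cd68 was higher with ISO than with DMSO at 1 day (log2 1.06, edgeR adjusted p = 2.4e-05) and at 3 days (0.70, adjusted p = 0.0034). It was also higher with BML-260 at 3 days (0.72, adjusted p = 0.0012), and Cd14 did not pass in these comparisons. Muscle markers summed to 68 to 299 CPM, nearly all of it myoglobin (Mb), with at most 1 count of Ckm. The part of these cell types in the changes of the 10 genes was not tested.

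The genes whose levels tracked each early gene most closely over the 10 libraries were found by Pearson's r of log2 CPM among 9108 genes, as a description, since the libraries fall into 5 groups. Rgs2 was most like Glul, glutamine synthetase (r = 0.99), and Rasd1 was most like Pwwp2b (r = 0.992) and Pnpla3, a lipid droplet protein (r = 0.986). Nr4a1 tracked Arap1 (r = 0.98) and Pmp22 (r = 0.976). Sik1 followed the secreted protease Htra1 (r = 0.994) and Rcn3 (r = 0.991), and Gem followed the mitotic genes Troap (r = 0.987) and Aurkb (r = 0.986). The nearest genes to Pde4b were Errfi1 (r = 0.958) and Il6ra (r = 0.956), and those to Pde4d were Fip1l1 (r = 0.969) and Exoc2 (r = 0.965). For Crem they were Fundc2 (r = 0.954) and Haus1 (r = 0.949). Fam161a (r = 0.986) came second for Rgs2.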

How the data were processed

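Counts of reads per gene symbol were deposited by the authors as a table of 10 libraries, 2 for each of 5 groups. The submitters' processing notes list the genome builds mm9 and mm10 and the tools TopHat2 2.1.1, bcl2fastq 2.17.1.14, DESeq2 and bedtools, with no role for any of them. The authors also deposited lists of changed genes with log2 fold changes and adjusted p-values. Totals ran from 16955918 to 21185675 counts; without molecular identifiers, the counts limit precision only as far as counting error goes.

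The counts were fitted as deposited with edgeR 4.0.16 (R 4.3.3): TMM scaling, a filter on low counts (minimum count 10, minimum total 15), a separate mean for each group in a single fit of 10 libraries (leaving 5 residual degrees of freedom), the quasi-likelihood test and Benjamini-Hochberg adjustment over 15212 genes, with calls at 0.05. Standard errors were taken as the absolute log2 fold change over the root of F. CPM values are TMM-scaled, and correlations use a prior count of 2. All 10 members are described. From each pathway list a few genes of small p in a comparison are named, not always those of smallest p. Ucp1 and Adrb3 are reference genes, and for each called member the 2 genes of highest correlation are given. Alternatives were DESeq2 1.42.0, other scalings, no filter, a replicate block, fits of only the groups compared, and leaving out each library. The fit was tested on simulated counts. The members and lists were chosen with earlier results of these data known. The stated design compares BML-260, DMSO and ISO.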

Additional observations from a re-analysis of the deposited data

Results flagged for a closer look

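For Nr4a1, Rgs2 and Rasd1, the effect of BML-260 at 3 days differed from that at 1 day by a test of the difference itself (edgeR, adjusted over all genes). Nr4a1 differed by -0.66 on the log2 scale (adjusted p = 0.0073), with both BML-260 libraries below both controls at each time. The value for Rgs2 was -0.98 (adjusted p = 1.9e-07), and that for Rasd1 was -0.67 (adjusted p = 0.0075). In all 3 genes the reduction was the larger at 3 days. DMSO libraries at the 2 times differed for Rasd1 as well, which was 2.05-fold lower at 3 days. Of all genes tested, 4.53% were called in this direction.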

How the results depend on the processing

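Calls that depended on the setting stand beside their genes in the report. DESeq2 called 1723 genes for BML-260 at 1 day (956 higher, 767 lower, against 2727), 660 for the difference between the times (against 1287) and 1820 for ISO against DMSO at 3 days (1160 higher, 660 lower, against 3027). Leaving out a library in turn gave 1232 to 2383 genes for BML-260 at 1 day, 658 to 1163 for the difference and 1469 to 2542 for ISO against DMSO at 3 days. The lowest values came without replicate 2 of DMSO at 1 day for the first 2 and without replicate 2 of ISO for the last. Counts more than 1.5 times lower also came without replicate 1 (1748) or 2 (1810) of BML-260 for BML-260 at 1 day. For the difference they came without replicate 1 (678) or 2 (794) of DMSO or replicate 1 of BML-260 (760) at 3 days, and for ISO against DMSO at 3 days without replicate 1 (1693) or 2 (1711) of that DMSO. The members called for BML-260 at 1 day then numbered 2 to 4, with 2 left without replicate 2 of DMSO at 1 day. Fewer libraries and fewer residual degrees of freedom are part of leaving 1 out, and the cause of the DESeq2 differences was not tested.

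The direction turned only for values not called. With upper-quartile scaling, Nr4a1 in ISO against DMSO at 1 day was -0.02. Over the left-out libraries that value ranged from -0.06 to 0.13, Nr4a1 with time in DMSO from 0 to 0.19, and Nr4a2 with BML-260 at 1 day from -0.17 to 0.26. Nr4a2 ranged from -0.42 to 0.14 with time in DMSO and from -0.38 to 0.18 in ISO against DMSO at 3 days. Sik1 ranged from -0.13 to 0.01 with BML-260 at 3 days and from -0.03 to 0.11 for the difference. Pde4b in ISO against DMSO at 1 day ranged from -0.03 to 0.19, and Rgs2 in BML-260 against ISO from -0.06 to 0.10.

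Scaling moved the split of calls by over 10 points in some comparisons. Upper-quartile scaling gave 2588 higher and 3831 lower for ISO against DMSO at 1 day and 1234 and 1817 for ISO against DMSO at 3 days. Library totals alone gave 1060 and 2144 for the latter, 1090 and 1569 for BML-260 at 1 day and 1943 and 3472 at 3 days. A fit of only the groups compared gave 926 and 622 for the difference. The median of all genes moved by at most 0.06 between scalings. With a replicate block, 2900 genes were called for BML-260 at 1 day, 5555 at 3 days, 1475 for the difference, 6498 and 3190 for ISO against DMSO at 1 and 3 days, 6869 for BML-260 against ISO and 5456 for time in DMSO. Libraries with the same number did not deviate together (correlations of -0.03 to 0.06 over 10 pairs of groups). Noise in such differences could hide a weak pairing, and each count with the block was above that without it. The low counts of Nr4a3, Gem and Nr4a2 limit what can be seen at this depth.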
